A study of Bos taurus with 20 samples.

Results

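The interleukin-1 (IL-1) axis and the NLRP3 inflammasome were examined in maternal blood through 9 genes, namely IL1A, IL1B, IL1RN, IL1R1, IL1R2, IL1RAP, IL18, CASP1 and NLRP3. They were chosen by symbol, with earlier results of these data known, and were 9 of the 37063 genes in the counts. IL1B (Entrez 281251) and IL1A (281250) encode the IL-1 ligands, and IL1RN (281860) encodes the antagonist that occupies the receptor without signalling. IL1R1 (515640) is the signalling receptor, IL1RAP (539334) its accessory chain, and IL1R2 (515700) a decoy receptor. IL18 (281249) encodes a related cytokine, CASP1 (514214) the protease that matures IL-1 beta and IL-18, and NLRP3 (538639) the sensor that assembles the inflammasome around that protease.

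The IL-1 pathway is one of the first inflammatory responses of circulating myeloid cells. IL-1 beta and IL-18 are made as inactive precursors, and an inflammasome, which is a protein complex built by a sensor such as NLRP3, activates caspase-1 to cut them. Signalling needs the receptor together with its accessory chain, and the antagonist and the decoy receptor limit it, so RNA levels give only one layer of its control.

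Whole blood was taken into RNA-stabilizing tubes from 20 recipient cows on day 63 of gestation, and 1 polyA RNA library was sequenced per cow. Each cow carried 1 female beef breed fetus from an in vitro-produced embryo made with X-sorted semen and transferred on day 7. The study's methods call the recipients lactating dairy cows while its summary of samples lists Angus, and ages and parities differed between cows but are not paired with the libraries. Nothing was treated or deleted, and calf birth weight (BW), from 30 to 72.5 kg, was the only variable given for each library. All 20 BW differed, so each cow is named here by the weight of her calf.

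Total counts ranged from 24632077 to 39892111 per cow, with a median of 33412740. Among the 190 pairs of libraries, the smallest chi-square per degree of freedom was 12.6, so no library repeated another. Levels are given as CPM, counts divided by the size of the library after TMM scaling. All values come from mixed blood cells, in which fewer cells of a type and less RNA per cell cannot be told apart.

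Of the ligands, IL1B was measured with 4119 to 14652 counts per cow. Its level was 160.2 CPM in the cow of the 56 kg calf, 281.1 CPM at the median and 363.9 CPM in the cow of the 40 kg calf. The mean was 277.4 ± 59.6 CPM (SD, n = 20), and 4 cows lay below 80% of the median. The low end was made of cows of mid-weight and heavy calves, and the cows of the 30 and 32 kg calves were at 107% and 101% of the median.

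IL1A RNA was scarce. It gave 0 to 19 counts with a median of 5, and only 4 cows reached 10 counts, so it did not pass the filter of at least 10 counts in at least 5 cows and the other 8 genes did. The 5 cows with 0 counts were those of the 30, 32, 35, 53 and 56 kg calves. In these cows 3 counts, taken as the limit of detection, would equal 0.0789 to 0.121 CPM. The highest levels were 0.56 CPM, for the 37 kg calf's recipient, and 0.529 CPM, for that of the 50 kg calf, which lie at opposite sides of the median BW of 44 kg.

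The antagonist IL1RN was at 140.2 CPM in the cow of the 72.5 kg calf, 222.6 CPM at the median and 276.8 CPM in the cow of the 50 kg calf. The mean was 213.4 ± 36.2 CPM (SD, n = 20). The cow of the 56 kg calf was second lowest at 142.9 CPM, so the 2 heaviest calves went with the 2 lowest antagonist levels. In no cow did IL1RN exceed 125% of its median.

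IL1B and IL1RN varied together across cows, and the ratio of their CPM within a cow varied less than either gene. It ran from 0.941 in the cow of the 43 kg calf through a median of 1.29 to 1.81 in the cow of the 40 kg calf. On the log2 scale its SD was 0.21, against 0.33 for IL1B and 0.27 for IL1RN. The ratio compares cows and not the molar amounts of ligand and antagonist, because transcript lengths were not available here. For the same reason no order of levels between genes is given.

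The decoy receptor IL1R2 was the most variable of the 8 genes past the filter. It was at 2.81 CPM in the cow of the 43 kg calf, 4.40 CPM at the median and 10.9 CPM in the cow of the 50 kg calf, a 3.90-fold range with a coefficient of variation of 39.7%. The counts behind it were 76 to 372 per cow. Of all genes tested, 75.7% had a lower SD on the log2 scale.

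The signalling receptor IL1R1 was steady by comparison. It ran from 115.9 CPM in the cow of the 36 kg calf through 167.0 CPM to 192.3 CPM in the cow of the 35 kg calf, with a coefficient of variation of 11.8%. The cow of the 56 kg calf, lowest for IL1B, had the second highest IL1R1 at 184.1 CPM. The ratio of IL1R1 to IL1R2 therefore followed the decoy receptor and ranged from 15.6 in the cow of the 50 kg calf to 61.5 in the cow of the 43 kg calf.

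The accessory chain IL1RAP was at 11.8 CPM in the cow of the 56 kg calf, 16.5 CPM at the median and 25.6 CPM in the cow of the 55 kg calf. These 2 cows, at neighbouring BW, held its lowest and highest value. IL18 was arranged in the same way, with 24.1 CPM in the cow of the 56 kg calf, 43.6 CPM at the median and 79.8 CPM in the cow of the 55 kg calf. Its coefficient of variation was 33.4%, and 73.6% of all genes tested had a lower SD.

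CASP1 varied least of the 8 genes, from 130.6 CPM in the cow of the 49.5 kg calf through 158.1 CPM to 187.2 CPM in the cow of the 45 kg calf. Its coefficient of variation was 10.7%, and no cow lay below 80% or above 125% of its median. Counts of CASP1 remain uncertain to the extent that reads were shared with CASP4, its neighbour and a related caspase gene. NLRP3 ran from 31.8 CPM in the cow of the 56 kg calf through 51.0 CPM to 69.4 CPM in the cow of the 38 kg calf. The ratio of IL18 to CASP1 spanned 0.152 to 0.468, again between the cows of the 56 and 55 kg calves.

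**Figure D1:**
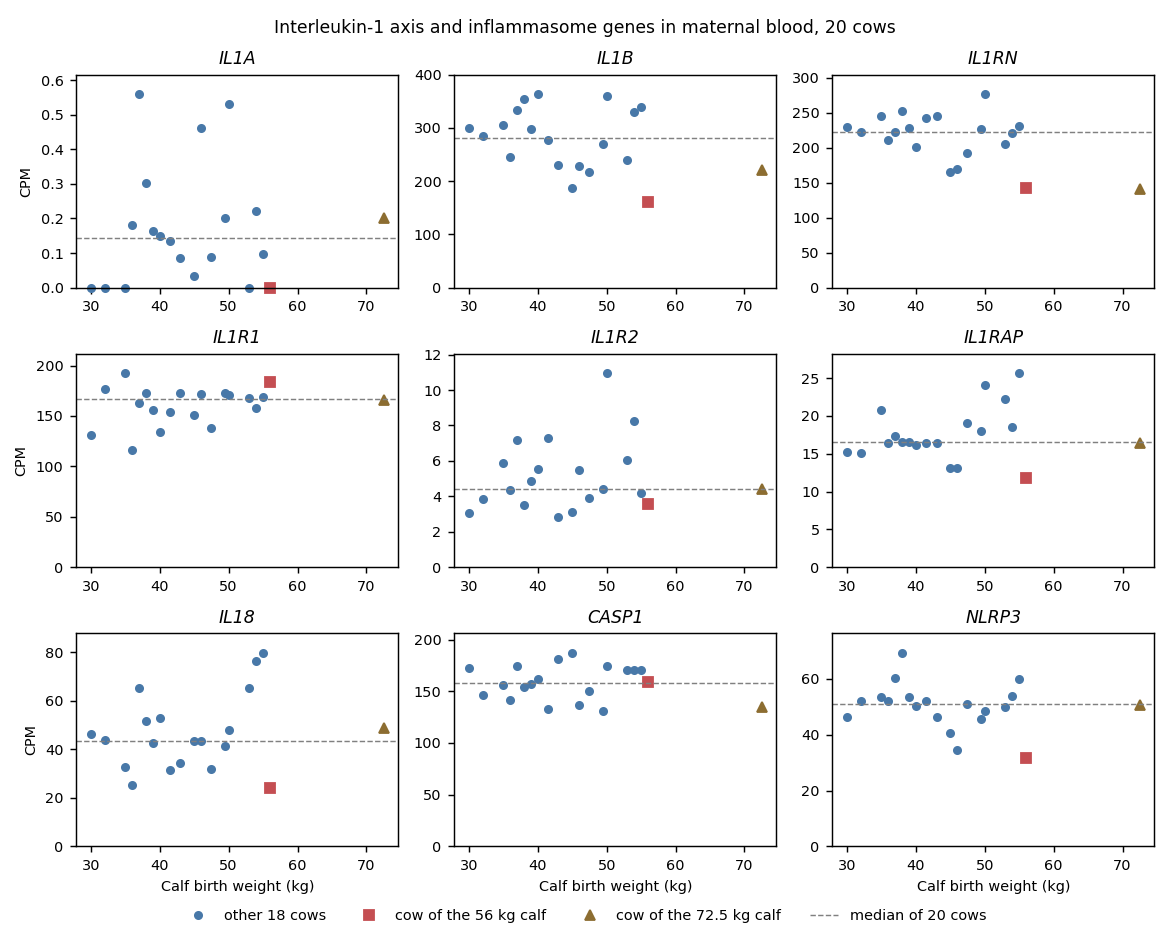
Level of each gene (CPM, linear axis from 0) against calf BW (kg) in 20 cows, 1 point per cow, with the median as a dashed line. The cow of the 56 kg calf (red square) is lowest for IL1B, IL1RAP, IL18 and NLRP3, and CASP1 stays between 130.6 and 187.2 CPM.

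The cow of the 56 kg calf was at the low end for several genes of this pathway. She was lowest for 4 genes, with IL1B at 57.0% and IL18 at 55.3% of the median, second lowest for IL1RN, and at 101% of the median for CASP1. The cows of the 45 and 46 kg calves were also low for IL1B (66.9% and 81.4% of the median) and IL1RN (74.4% and 75.9%). IL1RAP was at 79.1% and 79.5% of the median in them, NLRP3 at 79.4% and 67.7%, and IL18 at 99.6% and 99.1%. The cow of the 56 kg calf had the lowest summed level of the 10 neutrophil markers measured, 2648 CPM against a median of 4030 CPM. Her sum of the 9 monocyte markers was also the lowest, 686 CPM against 1201 CPM. She also had the most IL5RA, a receptor of eosinophils, at 199.9 CPM against a median of 58.8 CPM. For the 46 kg calf's recipient the monocyte sum was 777 CPM and IL5RA was at 148.2 CPM. The part of these cells in the low values was not tested. Counts and slopes below that moved most with the cow of the 56 kg calf are also given without her.

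Whether the genes followed calf BW was asked with the slope of log2 expression on BW in 19 cows, leaving out the 72.5 kg calf as the study did. No gene of the axis passed this test. By edgeR's quasi-likelihood test with Benjamini-Hochberg adjustment over 16206 genes, 0 of 8 had an FDR under 0.05 and 0 had an unadjusted p under 0.05. Over all genes the FDR criterion was met by 0% and the unadjusted one by 13.9%. DESeq2, with its own filter on 23087 genes in place of the count filter, called 0.819% of them and limma-voom none, and neither gave any of the 9 or 8 genes it tested an unadjusted p under 0.05.

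Slopes of IL1B, IL1RN and NLRP3 were negative and the other 5 were positive, where 53.4% of all genes had a negative slope. The median over the 8 genes was 0.0039 per kg on the log2 scale, against -0.00072 over all genes. IL1RAP had the smallest p, with a slope of 0.0116 ± 0.0079 per kg (SE), p = 0.156 and FDR = 0.552 by edgeR. From a 30 kg to a 56 kg calf this slope equals a 1.23-fold level, with a 95% interval from 0.917 to 1.66. Single cows moved this slope from 0.0061, without that of the 55 kg calf, to 0.0187, without that of the 56 kg calf.

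For the ligand IL1B the same fitted fold was 0.835, with an interval from 0.601 to 1.16 (FDR = 0.663 by edgeR). For the antagonist IL1RN it was 0.854, from 0.673 to 1.08 (FDR = 0.579 by edgeR). The slope of IL1B was -0.0100 per kg with all 19 cows and -0.0031 once the cow of the 56 kg calf was left out, and that of IL1RN was -0.0088 and -0.0032. Both slopes were thus nearer to 0 without that single cow.

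For IL18 the fitted fold was 1.37, from 0.853 to 2.19, and for IL1R2 1.38, from 0.780 to 2.45. Leaving out single cows moved the slope of IL18 (0.0173 per kg) from 0.0090 without the 55 kg calf to 0.0264 without the 56 kg calf. That of IL1R2 (0.0180 per kg) ran from 0.0085 without the 50 kg calf to 0.0258 without the 56 kg calf. These 2 genes had the widest intervals, so at this spread between cows changes within those bounds are not excluded for them. For CASP1 the interval was the narrowest, from 0.882 to 1.22 around 1.04. IL1R1 lay at 1.11, from 0.921 to 1.34, and NLRP3 at 0.836, from 0.640 to 1.09. The NLRP3 slope of -0.0100 per kg became -0.0042 without the 56 kg calf and -0.0148 without the 55 kg calf. Slopes of IL1R1 ran from 0.0030 (without the 30 kg calf) to 0.0087 (without the 35 kg calf), and those of CASP1 from 0.00082 (without the 32 kg calf) to 0.0044 (without the 30 kg calf). IL1A could be fitted only without the count filter, with a slope of 0.0142 per kg (p = 0.828 by edgeR).

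**Figure D2:**
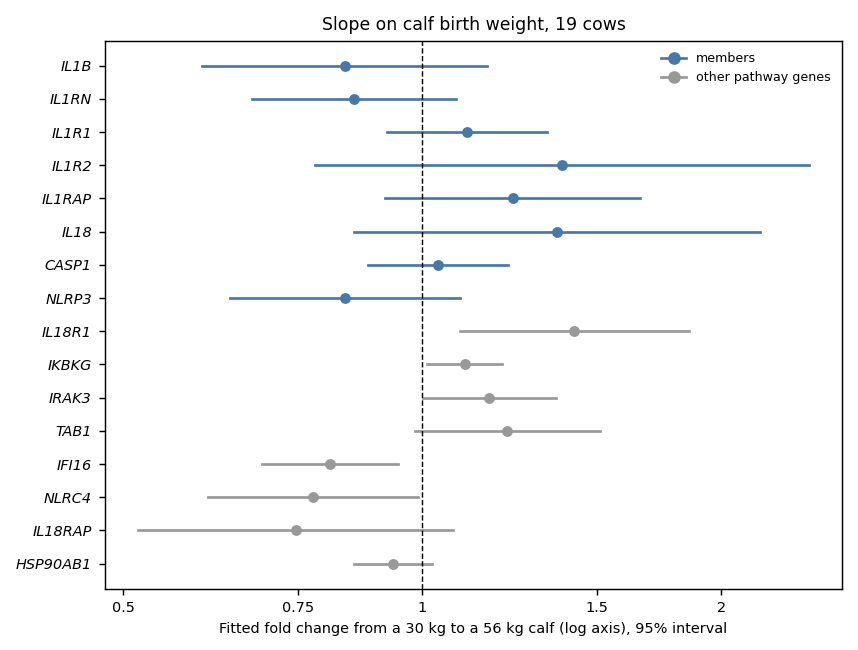
Fitted fold change between a 30 kg and a 56 kg calf (log axis) with its 95% interval from edgeR in 19 cows, for the 8 genes of the axis (blue) and the other pathway genes with the smallest p in each direction (grey). All 8 blue intervals include 1, from IL1B at 0.835 to IL1R2 at 1.38.

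With all 20 cows and log2 CPM, 0 of the 8 genes correlated with calf BW at an adjusted permutation p under 0.05, a criterion met by 0.043% of 16269 genes. At an unadjusted p under 0.05, which 13.4% of all genes reached, 1 gene remained. That gene was IL1RN, with Pearson r = -0.55 (permutation p = 0.0128, adjusted over 16269 genes 0.282) and Spearman rho = -0.37 (permutation p = 0.105, adjusted 0.435). Without the 2 cows farthest from the median BW its r was weaker, at -0.32, over a narrower range of BW. IL1B had r = -0.35 (permutation p = 0.125, adjusted 0.498) and rho = -0.32 (permutation p = 0.175, adjusted 0.530), and r = -0.28 without the 2 farthest cows.

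Co-variation among the genes across the 20 cows did not use calf BW. Of the 36 pairs, 31 had a positive Pearson r and the median was 0.22, against -0.0019 over all pairs of tested genes. An adjusted permutation p under 0.05 was reached by 7 pairs, all positive, and these were the pairs with r of at least 0.5. That value was reached by 3.61% of all gene pairs, and 3.62% reached the smallest of the 7 in absolute value. Among genes with a median of at least 1 CPM, 6.65% had r of at least 0.5 with IL1B and 6.85% with IL1RN. The share was 6.64% for NLRP3, 4.15% for IL1RAP and 1.51% for IL18. On variance-stabilized counts 2 pairs passed, and on residuals on the log2 total count also 2. By Spearman's rho 0 pairs passed after adjustment and 8 had an unadjusted permutation p under 0.05, against 12 by Pearson's r.

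The ligand IL1B and its antagonist IL1RN formed the closest pair, with r = 0.76 (permutation p = 0.00012, adjusted over 36 pairs 0.00432) and rho = 0.64 (permutation p = 0.00314, adjusted 0.103). Without the 2 cows farthest from the median of IL1B, r was 0.60, and leaving out single cows kept it between 0.67 and 0.82. IL1B and the sensor NLRP3 had r = 0.73 (permutation p = 0.00025, adjusted 0.0045) and rho = 0.60 (permutation p = 0.00605, adjusted 0.103). Here r was 0.53 without the 2 farthest cows and 0.61 once the cow of the 56 kg calf was left out.

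The other 5 pairs shared an adjusted permutation p of 0.0471, close to the threshold. IL1RN and NLRP3 had r = 0.61 and rho = 0.41, IL1RAP and NLRP3 r = 0.60 and rho = 0.50, and IL1RN and IL1RAP r = 0.59 and rho = 0.51. IL1B had r = 0.57 with both IL18 and IL1RAP, with rho = 0.58 and 0.46. Without the 2 cows farthest on the first-named gene, these 5 values of r were 0.59, 0.65, 0.53, 0.49 and 0.30 in the same order. Without the cow of the 56 kg calf they were 0.46, 0.46, 0.47, 0.45 and 0.43.

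The count of called pairs depended on single cows. Without the 56 kg calf's recipient 1 pair passed in place of 7, and 2 pairs had r of at least 0.5. Leaving out any 1 of 7 other cows, those of the 35, 36, 45, 46, 49.5, 54 and 55 kg calves, left 2 pairs. Leaving out that of the 43 kg calf left 3, those of the 37 or 50 kg calves left 4, and the largest count was 9, without that of the 38 kg calf. After removing a linear fit on the neutrophil score, or on the monocyte score, 0 pairs passed, and r of IL1B and IL1RN was 0.36 and 0.51.

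IL1R1, CASP1, IL1A and IL1R2 were in none of the 7 pairs. The 8 values of r for IL1R1 ran from -0.10 to 0.14, and those for CASP1 from -0.19 to 0.39. IL1R1 and IL1R2, adjacent genes for 2 receptors of the same ligands, had r = 0.11 (permutation p = 0.635, adjusted 0.797) and rho = -0.07 (permutation p = 0.782, adjusted 0.838), and r = -0.07 without the 2 farthest cows. CASP1 and IL18, the protease and its substrate, had r = 0.39 (permutation p = 0.0862, adjusted 0.222) and rho = 0.40 (permutation p = 0.0813, adjusted 0.253), and r = 0.42 without the 2 farthest cows. IL1A and IL1B had r = 0.40 (permutation p = 0.0831, adjusted 0.222), rho = 0.36 (permutation p = 0.116, adjusted 0.320) and r = 0.23 without those cows, where the low counts of IL1A limit precision. The 3 lowest correlations were those of IL1A with CASP1 (r = -0.19), NLRP3 with IL1R1 (-0.10) and IL1A with IL1R1 (-0.07), with adjusted permutation p of 0.678, 0.799 and 0.897.

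**Figure D3:**
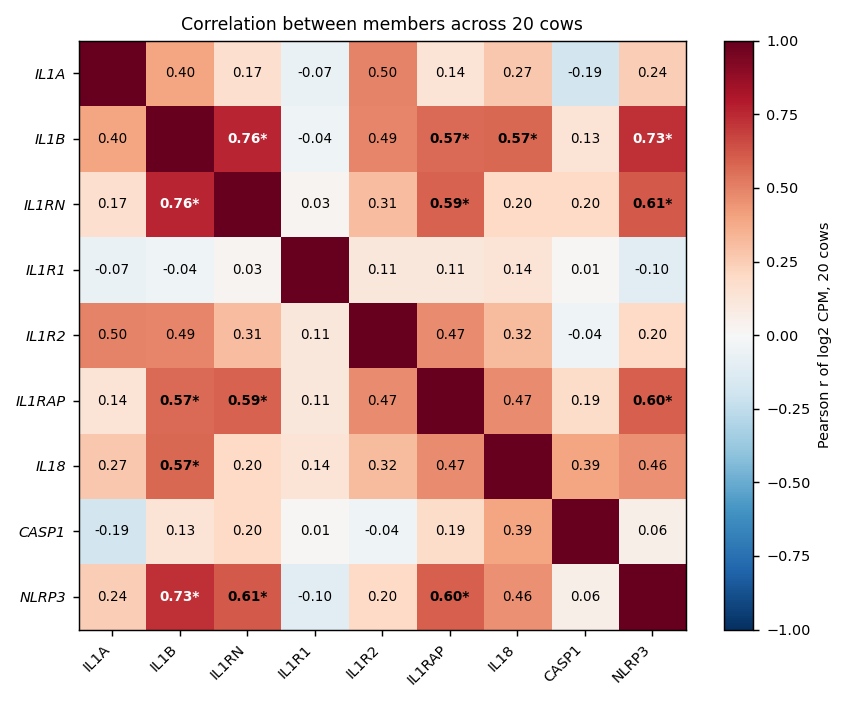
Pearson r of log2 CPM between the 9 genes in 20 cows, with 1 cell per pair. Asterisks mark the 7 pairs with an adjusted permutation p under 0.05, which join IL1B, IL1RN, IL1RAP, IL18 and NLRP3, and the row of IL1R1 stays between -0.10 and 0.14.

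Because whole blood is a mixture, each gene was set beside marker scores, the mean z-score of log2 CPM over genes known to mark a cell type or response. Of 99 relations between 9 genes and 11 lists, 12 had an adjusted permutation p under 0.05 by Pearson's r and 6 by Spearman's rho. An absolute r as large as the smallest of the 12 was found for 3.85% of all genes and lists. All but 1 of the 12 were positive, and 9 were with the neutrophil or the monocyte score. These 2 scores shared extremes. The 56 kg calf's recipient scored lowest on both (neutrophil -1.51, monocyte -2.14), and the 50 kg calf's scored high on both (1.28 and 0.83). They were further apart for the 45 kg calf's recipient (-1.36 and -0.19). The 9 relations are therefore not given as links to separate cell types, and how far the scores varied together was not tested.

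The neutrophil score, from 10 of 12 listed genes among them CSF3R, went with IL1B at r = 0.84 (permutation p = 1e-05, the smallest the resampling can give, adjusted over 99 relations 0.00099) and rho = 0.81 (permutation p = 4e-05, adjusted 0.00346). Without the 2 cows farthest on that score r was 0.72. IL1RAP had r = 0.76 (adjusted permutation p = 0.00198), IL1RN 0.75 (0.00297), NLRP3 0.69 (0.0094) and IL1R2 0.60 (0.0473). Their rho were 0.66, 0.64, 0.71 and 0.49, and their r without the 2 farthest cows 0.62, 0.61, 0.49 and 0.53. An absolute r of at least 0.5 with this score was found in 10.8% of all genes.

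The monocyte score, from 9 of 10 listed genes among them VCAN, went with NLRP3 at r = 0.83 (permutation p = 3e-05, adjusted 0.00148) and rho = 0.68 (permutation p = 0.00126, adjusted 0.0312), and r = 0.55 without the 2 farthest cows. IL1B had r = 0.78 (adjusted permutation p = 0.00223), IL1RAP 0.68 (0.0129) and IL1RN 0.67 (0.0275), with rho of 0.80, 0.52 and 0.43 and r of 0.69, 0.46 and 0.42 without the 2 farthest cows. For this score 15.5% of all genes reached an absolute r of 0.5.

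The other 3 called relations were of IL1B with platelet markers, IL1RN with immediate early genes and NLRP3 with IL5RA. Their r were 0.60, 0.59 and -0.60, all with an adjusted permutation p of 0.0473. The rho were 0.54, 0.44 and -0.39, none of which passed after adjustment, and r without the 2 farthest cows was 0.55, 0.48 and -0.48. Of the 8 listed eosinophil markers, only IL5RA had any counts. CCR3 and ALOX15 were at 0 in every cow, and the remaining symbols matched no gene in the counts.

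IL1R1, CASP1, IL18 and IL1A had no called relation. IL18 had r = 0.54 with the monocyte score (adjusted permutation p = 0.0906) and 0.50 with the neutrophil score (0.131), with rho of 0.61 and 0.53 and r of 0.45 and 0.41 without the 2 farthest cows. CASP1 had its largest r, 0.57, with the immediate early genes (adjusted permutation p = 0.073), with rho = 0.56 and r = 0.46 without the 2 farthest cows. IL1R1 had r = 0.18 with the neutrophil and -0.20 with the monocyte score, and the smallest adjusted permutation p of its 11 relations was 0.186. No called relation involved T cell, B cell, natural killer cell, erythroid, glucocorticoid response or interferon response genes. With the cow of the 56 kg calf left out, 5 relations were called in place of 12.

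**Figure D4:**
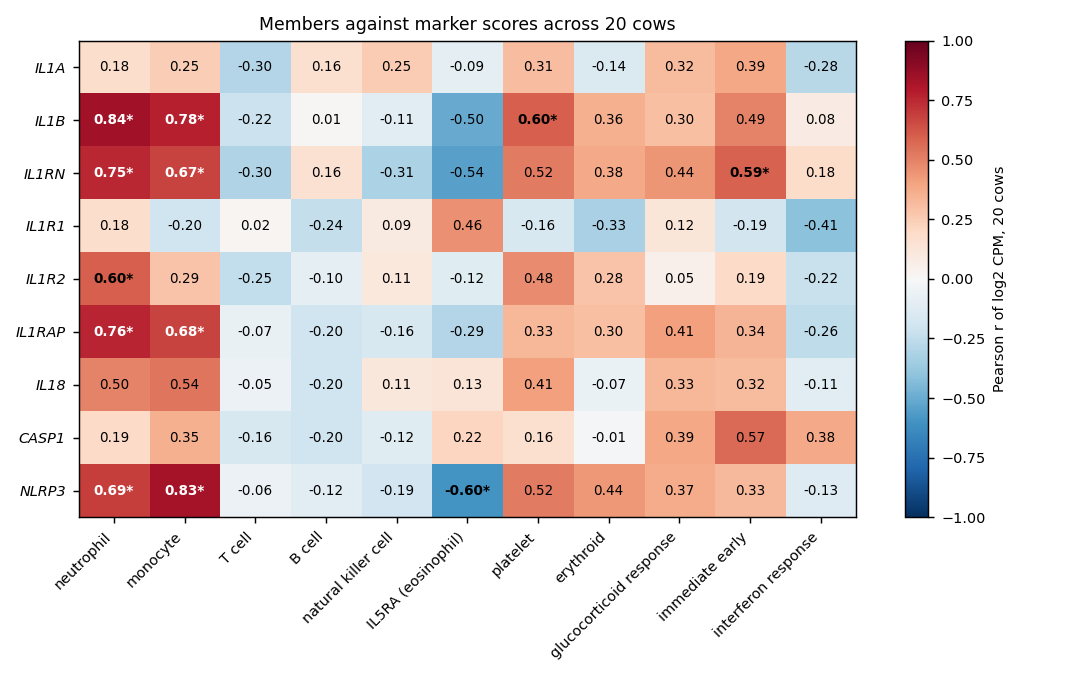
Pearson r between the log2 CPM of each gene (rows) and each marker score (columns) in 20 cows, where the eosinophil column is IL5RA alone. Asterisks mark the 12 relations with an adjusted permutation p under 0.05, of which 9 lie in the neutrophil and monocyte columns, led by IL1B at 0.84 and NLRP3 at 0.83.

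The slopes on calf BW kept their direction with either score as a covariate. That of IL1B was -0.0077 per kg with the neutrophil score and -0.0051 with the monocyte score, and that of IL18 was 0.0180 and 0.0214. None reached an FDR under 0.05 by edgeR in these fits, the smallest being 0.238 for IL1RAP with the neutrophil score.

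**Figure D5:**
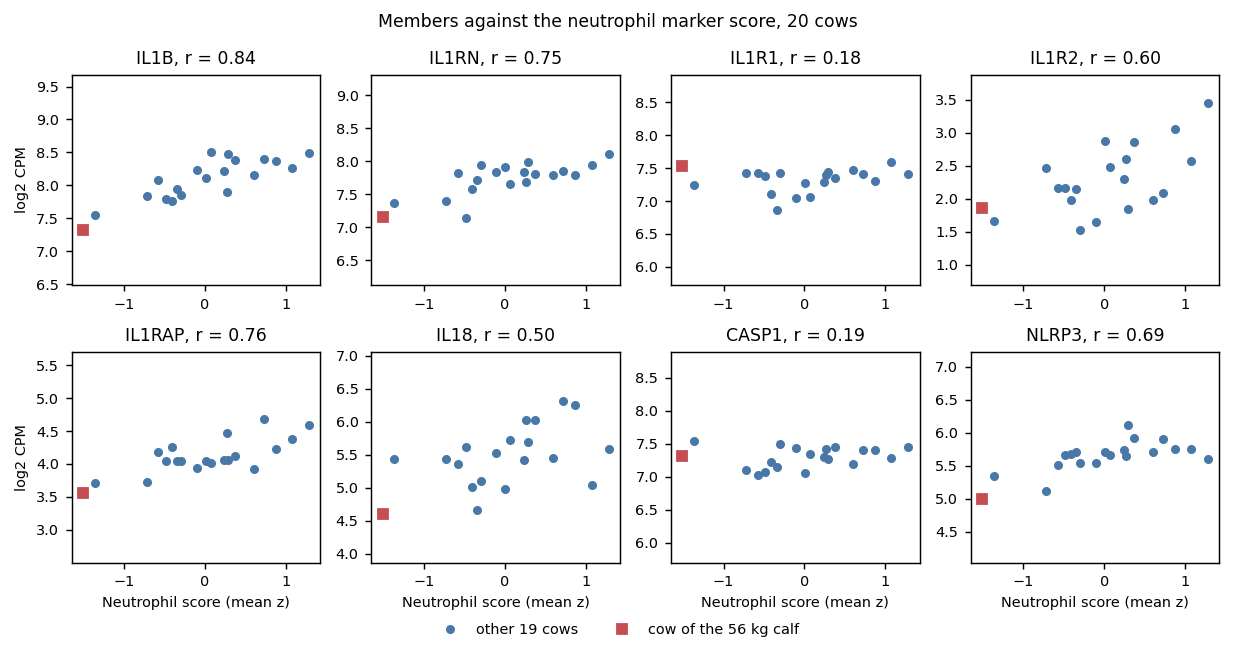
Log2 CPM of the 8 genes past the filter against the neutrophil marker score (mean z-score) in 20 cows, 1 point per cow, every panel spanning the same number of log2 units. IL1B rises with the score (r = 0.84) and IL1R1 (r = 0.18) and CASP1 (r = 0.19) show little slope, and the cow of the 56 kg calf (red square) has the lowest score.

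The genes whose levels were most like each member's over the 20 cows, among 13170 genes with a median of at least 1 CPM, are a description chosen for their r and carry no test. IL1B was closest to BCL6, a transcriptional repressor (r = 0.92, rho = 0.87), then WLS (r = 0.89) and SBNO2 (r = 0.88). NLRP3 was closest to CD163, the haemoglobin scavenger receptor of monocytes and macrophages (r = 0.95, rho = 0.88), then VNN1 (r = 0.88) and RAB31 (r = 0.87). CD163 is also one of the 9 monocyte markers. IL1RN was closest to DUSP2, a phosphatase of MAP kinases (r = 0.88), LOC407171 (r = 0.88) and MAPKAPK2 (r = 0.85), and IL1RAP to LAPTM4B (r = 0.85), the kinase gene BMX (r = 0.84) and PROK2 (r = 0.83).

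Of the genes with fewer called relations, IL1R1 was closest to SNX27 (r = 0.80), CD80 (r = 0.80) and FIG4 (r = 0.79). CASP1 was closest to TCEAL1 (r = 0.80), TRPT1 (r = 0.79) and TRIM45 (r = 0.77), and IL18 to ARPIN (r = 0.72), STK16 (r = 0.71) and HDAC4 (r = 0.71). For IL18 and CASP1, 0 genes reached r = 0.8, against 30 for IL1B and 29 for NLRP3.

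IL1R2 was closest to LOC112448746 (r = 0.84, rho = 0.85), then DHX34 (r = 0.76) and LOC112449264 (r = 0.74). LOC112448746 is a long non-coding RNA that lies next to IL1R2 in the gene table without overlapping it, and IL1R1 lies on the other side. It gave 65 to 249 counts per cow, and r stayed between 0.81 and 0.87 when single cows were left out. With IL1R1, its other neighbour, IL1R2 had r = 0.11.

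Of 70 other genes of the IL-1 family, its receptors and signalling, and the inflammasomes, 68 were in the counts and 53 passed the filter. None had an FDR under 0.05 by edgeR, DESeq2 or limma-voom. By edgeR 5 of the 53 had an unadjusted p under 0.05, 3 with a positive and 2 with a negative slope. Over all genes that share was 13.9% by edgeR. DESeq2 gave 5 of the 68 in the counts, where 2453 of the 23087 genes given a p reached that p. The 68 include IL36G, MEFV, NLRP6 and CASP8, which had 0 counts and were given no p by DESeq2. With limma-voom it was 5 of the 53, where 2086 of 16206 genes did.

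The 4 smallest p with a positive slope were those of IL18R1, the IL-18 receptor (1.42-fold from 30 to 56 kg, 95% interval 1.09 to 1.85, p = 0.0116, FDR = 0.224 by edgeR), IKBKG, IRAK3 and TAB1. The 4 with a negative slope were those of IFI16, a nucleic acid sensor (0.807-fold, 0.689 to 0.945, p = 0.0101, FDR = 0.216 by edgeR), NLRC4, IL18RAP and HSP90AB1. NLRC4, an inflammasome sensor, was at 0.776-fold (0.609 to 0.990, p = 0.0423, FDR = 0.342 by edgeR). IL18R1 and IL18RAP, the 2 chains of the IL-18 receptor, thus had slopes of opposite sign, 0.0196 and -0.0163 per kg, of which neither passed.

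By role, 6 of 7 inflammasome sensors and 9 of 12 adaptors and effectors had a negative slope, beside 9 of 17 signalling genes, 6 of 10 IL-1 response genes, 2 of 4 receptors, 1 of 2 further antagonists and decoys and the 1 further ligand tested. Over all genes 53.4% had a negative slope, and nothing particular to a group was tested. Examples of their levels, not corrected for length and so not compared between genes, were medians of 431.3 CPM for NAIP, 1532 CPM for HSP90AB1, 257.4 CPM for MYD88, the adaptor of the receptor, and 132.7 CPM for SOD2. The median was 24.3 CPM for IL18R1 and 51.9 CPM for SIGIRR. Of the other IL-1 family ligands 1 of 6 passed the filter, IL33, at a median of 0.419 CPM. IL36G, MEFV, NLRP6 and CASP8 are listed at 0 in every cow. CASP8 is in common use among cells, so these zeros are given as listed and not as absence of RNA.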

How the data were processed

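RNA was measured in whole blood of 20 cows, 1 library each. Reads were trimmed by the authors (Trimmomatic) and aligned to ARS-UCD1.3 with STAR 2.7.0b, with FastQC 0.11.9 for quality. Raw counts per Entrez gene from featureCounts (Subread 2.0.3) were deposited. The labels name a SMARTer Stranded kit and the paper's methods a Truseq-stranded one, and the strand setting and the handling of multiply mapped reads are not given in the sources used here, so reads of overlapping or related genes may be misplaced. All 37063 identifiers matched a RefSeq gene table of ARS-UCD2.0, used only for names and neighbours. That table gives gene spans and not transcript lengths, so the planned level per kilobase was not computed.

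The 20 samples were 1 group. Slopes on calf BW came from edgeR 4.0.16 (R 4.3.3, TMM, quasi-likelihood) in 19 cows, limited to genes that reached 10 counts in 5 cows or more, with Benjamini-Hochberg adjustment over all of them. Correlations used log2 CPM (prior count 2) and two-sided permutation tests with 100000 resamples. Other filters, DESeq2 1.42.0, voom (limma 3.58.1), other scalings, cows and covariates were the alternatives. Residuals on the monocyte score were added after seeing the data. Scripts were tested on simulated data. P-values set a slope or correlation against the spread between cows, which with 1 library per cow includes technical spread.

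Named were the 9 members, the 3 most correlated genes of each, fixed and extreme pairs, the gene of each list with the highest CPM (not corrected for length), and the 4 smallest p in each direction among other pathway genes. The members and lists were chosen with earlier results of these data known.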

Additional observations from a re-analysis of the deposited data

How the results depend on the processing

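No member and no other pathway gene passed an FDR of 0.05 in any fit, leaving out each cow included (0 to 0 for both), and no member passed against BW in 20 cows under any setting (0 to 0 when leaving out cows). Over all genes, calls rose from 0 to 189 with DESeq2, which also tested 23087 genes without the count filter, to 147 with no count filter alone, 4 with all 20 cows and 1 with library size as a covariate. Leaving out single cows gave 0 to 34 genes, the most without the cow of the 32 kg calf. Of 80 member slopes under other settings, 79 kept their direction and side of the threshold. The exception was CASP1, at -0.0017 per kg with all 20 cows.

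The 7 called pairs became 2 on variance-stabilized counts, 2 on residuals on the total count, 0 on residuals on the neutrophil score and, added after seeing the data, 0 on residuals on the monocyte score. Leaving out single cows gave 1 (without the cow of the 56 kg calf) to 9 (without that of the 38 kg calf), and 11 of the 20 omissions changed the count by over 1.5 times. The correlation of IL1R1 and NLRP3 turned to 0.11 on residuals on the monocyte score, and ran from -0.19 to 0.067 when cows were left out. That of IL1A and IL1R1 ran from -0.21 to 0.047. Marker relations numbered 5 (without the cow of the 56 kg calf) to 15 (without that of the 35 kg calf). The causes were not tested.

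No paired analysis was possible because the 20 cows form 1 group with no replicate numbers shared between groups. Depth limits IL1A, at 0 to 19 counts, and less so IL1R2. The spread between cows limits the slopes.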
